A study of Mus musculus with 6 samples.

Results

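Oxidative phosphorylation is the pathway by which mitochondria turn the energy of reduced cofactors into ATP. Complexes I and II pass electrons from NADH and succinate to ubiquinone, complex III passes them on to cytochrome c, complex IV passes them to oxygen, and complex V, the ATP synthase, uses the proton gradient that complexes I, III and IV build. The subunits are assembled in fixed proportions from nuclear genes and, except in complex II, from genes of the mitochondrial chromosome, and several nuclear subunits have separate forms for particular tissues. The nuclear subunits were chosen by their symbols, as those starting with Ndufa, Ndufb, Ndufc, Ndufs, Ndufv, Sdh, Uqcr, Cox4i, Cox5, Cox6, Cox7, Cox8 or Atp5. These prefixes took 94 of the 23443 gene symbols. They comprise 36 genes of complex I, 4 of complex II, 8 of complex III, 18 of complex IV and 15 of complex V. The remaining 13 are assembly factors and relatives that carry the prefixes (Ndufaf1 to Ndufaf7, Sdhaf1, Sdhaf2, Atp5s, Atp5sl, Cox7a2l and Ndufa4l2). Genes of the mitochondrial chromosome were not analysed here.

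The libraries were made from mouse palatal mesenchyme, the tissue that fills the embryonic shelves from which the palate forms. The zinc finger protein Osr2 regulates transcription in these cells, and the shelves grow poorly without it. At embryonic day 13.5 (E13.5) there were 2 libraries from Osr2RFP/- mutants and 2 from Osr2RFP/+ controls, and at E12.5 there was 1 library of each genotype. All embryos had a mixed strain background and carried 1 Osr2RFP allele. Cells were sorted for its red fluorescent protein, so the libraries hold cells that used the Osr2 locus, and 1 Osr2 allele was modified in the controls too. The labels do not say whether a library came from 1 embryo, so the spread behind each p-value may be technical in part.

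Expression was given as FPKM, the number of fragments per kilobase after correction for library depth. Estimated depth was 14100000 to 17960000 fragments per library. The sum of FPKM over all genes was 162011 to 166213 in E13.5 mutants, 158208 to 167058 in E13.5 controls, 189855 in the E12.5 mutant and 154919 in the E12.5 control, so levels are also described after all libraries were scaled to 1 FPKM sum. All 12 palatal mesenchyme markers averaged at least 1 FPKM, with sums of 935 to 1110 FPKM. The sums of the 15 skeletal muscle markers were 1.76 to 3.33 FPKM. Osr2 had 68.5 and 88.4 FPKM in E13.5 mutants, 138 and 152 FPKM in E13.5 controls, 163 FPKM in the E12.5 mutant and 215 FPKM in the E12.5 control. Xist, which is transcribed from an inactive X chromosome, was high in E13.5 mutant replicate 2 and in both E12.5 libraries (129 to 141 FPKM) and at most 0.019 FPKM in the others. The number in the sample titles was 3047 for E13.5 mutant replicate 1, 3048 for the other E13.5 libraries and 2962 for both E12.5 libraries, and the labels do not say what it stands for.

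Oxidative phosphorylation genes together took 2.46% and 2.06% of the FPKM sum in E13.5 mutants and 2.33% and 2.31% in E13.5 controls. They took 2.34% in the E12.5 mutant and 2.21% in the E12.5 control. The mutant libraries of E13.5 were the highest and the lowest of the 6, so the genotypes overlapped. Levels differed widely between subunits of the same complex. Atp5b, the catalytic beta subunit of ATP synthase, was the most abundant member, with 340.2 and 366 FPKM in E13.5 mutants, 318 and 335 FPKM in E13.5 controls, 415 FPKM in the E12.5 mutant and 296 FPKM in the E12.5 control. Atp5a1, which encodes the alpha subunit of the same catalytic head, ranged from 129 to 217 FPKM over the 6 libraries. Among complex IV genes Cox7c was highest, at 154 to 259.5 FPKM, followed by Cox8a at 123 to 158 FPKM and Cox6a1 at 76.2 to 143 FPKM. These encode small subunits around the catalytic core, and 50.4% of the 75-base words of Cox7c occur in other annotated genes, so its reads may be shared. Complex I levels were lower, with Ndufa2 highest at 66.4 to 114 FPKM, then Ndufc1 at 47.7 to 73.1 FPKM and Ndufb9 at 56.3 to 71.4 FPKM. In complex II, Sdhc, a membrane anchor, had 43.1 to 52.9 FPKM and Sdha, the flavoprotein that oxidises succinate, had 25.0 to 35.3 FPKM. In complex III, Uqcrh, the hinge protein, had 53.0 to 74.4 FPKM and Uqcr10, a small membrane subunit, had 38.5 to 73.9 FPKM.

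**Figure D1:**
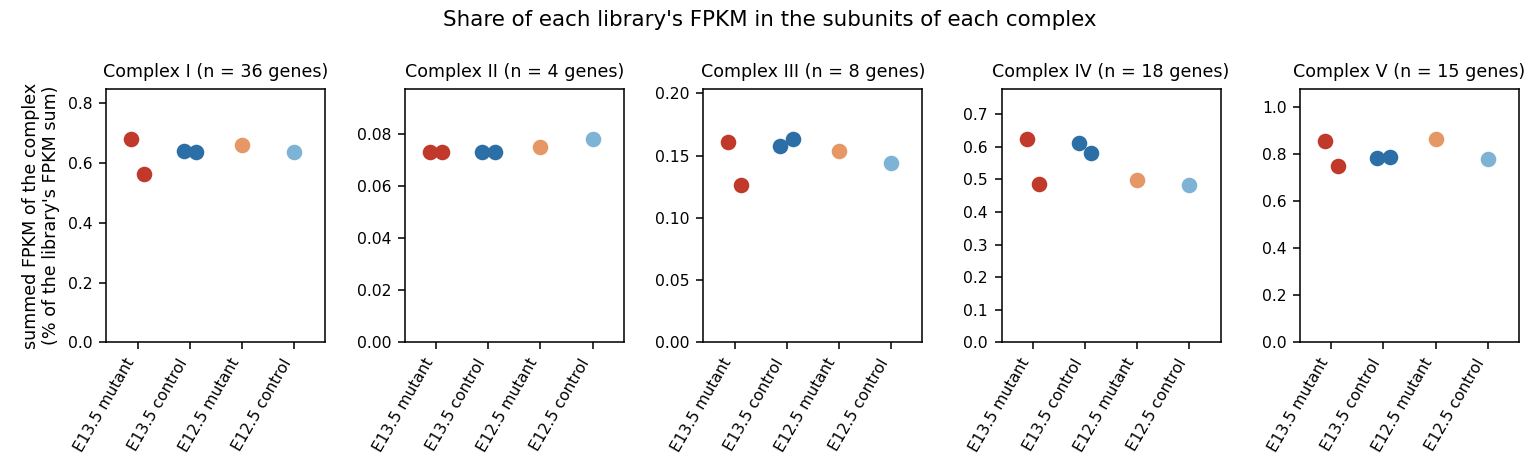
Summed FPKM of the subunits of complexes I to V as a percentage of each library's FPKM sum, with 1 point per library. Complex IV stood at 0.485% to 0.623% in the 4 E13.5 libraries and at 0.483% and 0.497% in the E12.5 libraries, and E13.5 mutant replicate 2 was the lowest E13.5 library for complexes I, III, IV and V.

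The forms of complex IV subunits known from other tissues were low or listed at 0. Cox6a2 and Cox8b, the forms of heart and skeletal muscle, and Cox8c, a testis form, were listed at 0 FPKM in all 6 libraries, while their widely expressed partners Cox6a1 and Cox8a were among the highest members. Cox7b2, another testis form, reached at most 0.043 FPKM. Cox7a1, the muscle form of Cox7a, had 0.199 to 1.06 FPKM, or 0.622% to 5.00% of the summed FPKM of Cox7a1 and Cox7a2. Cox4i2, a form known from lung and from response to low oxygen, had 1.29 to 2.55 FPKM, which was 2.70% to 3.58% of Cox4i1 and Cox4i2 together. Ndufa4l2, a relative of Ndufa4 induced by low oxygen, had at most 0.271 FPKM. Cox6b2, known from testis, was the exception. It had 14.7 and 4.64 FPKM in E13.5 mutants, 10.2 and 7.22 FPKM in E13.5 controls, 4.42 FPKM in the E12.5 mutant and 9.14 FPKM in the E12.5 control. Its share of Cox6b1 and Cox6b2 was 8.29% to 24.7%, and high and low libraries occurred in both genotypes and at both ages.

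Of the 94 genes, 88 reached the minimum of 1 FPKM in at least 2 libraries and were tested. Cox6a2, Cox7b2, Cox8b, Cox8c, Ndufa4l2 and Ndufs5 did not. Ndufs5, a subunit of the intermembrane side of complex I, was listed at 0.001 to 0.005 FPKM in 5 libraries and at 3.87 FPKM in the E12.5 control. BC002163, which lies at the same locus on chromosome 4, had 14.3 and 13.2 FPKM in E13.5 mutants, 15.5 and 15.4 FPKM in E13.5 controls, 10.6 FPKM in the E12.5 mutant and 7.97 FPKM in the E12.5 control. The sum of Ndufs5 and BC002163 was 13.2 to 15.5 FPKM in the 4 E13.5 libraries, 10.6 FPKM in the E12.5 mutant and 11.8 FPKM in the E12.5 control, so the level of Ndufs5 alone cannot be read from these values.

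The comparison of ages asked how subunit levels differed between E13.5 and E12.5, in a fit with age and genotype over all 6 libraries. At E13.5, 3 members were higher (Atp5g1, Atp5d and Cox6b1) and 10 were lower (Ndufa6, Uqcrb, Ndufb5, Ndufs3, Cox7a2l, Uqcrc1, Ndufa2, Uqcrfs1, Ndufa5 and Sdhb), with limma adjusted p under 0.05. Over all genes tested, 7.45% were called higher and 9.26% lower, so the share of members called lower was close to the background and the share called higher was below it. The median difference was -0.09 on the log2(FPKM + 1) scale for members and -0.07 for all genes. The 4 E13.5 libraries all lay above both E12.5 libraries for 6 members, against 13.6% of all genes, and all below them for 21 members, against 22.9% of all genes. At an unadjusted limma p under 0.05 there were 27 members (33.2% of all genes). After scaling to 1 FPKM sum, 6 members were called higher (9.56% of all genes) and 10 lower (6.54% of all genes), and 34 had an unadjusted limma p under 0.05 (31.8% of all genes). The E13.5 libraries then all lay above both E12.5 libraries for 14 members (19.7% of all genes) and below both for 24 (20.3% of all genes). Scaling added Cox6a1, Ndufs6 and Cox7c to the higher genes and Atp5a1 to the lower ones, and Sdhb was no longer called.

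Atp5g1, Atp5g2 and Atp5g3 encode the same mature c subunit, which forms the proton-driven ring of ATP synthase, with different import sequences. Atp5g1 (chromosome 11, 96072793 to 96075694 on mm10) had 44.9 and 42.9 FPKM in E13.5 mutants, 46.9 and 39.5 FPKM in E13.5 controls, 22.8 FPKM in the E12.5 mutant and 23.3 FPKM in the E12.5 control. All E13.5 libraries were above both E12.5 libraries, and the values of each age lay close together. The E13.5 library with high Xist was within the range of the other E13.5 libraries. Xist was also high in both E12.5 libraries, and the part of Xist status in the difference was not tested. The difference was 0.89 on the log2 scale, or 1.85-fold (SE 0.12, limma adjusted p = 0.00198), and it was called under all 16 alternatives. Atp5g3 had 81.8 and 67.3 FPKM in E13.5 mutants, 75.2 and 63.7 FPKM in E13.5 controls, 110.5 FPKM in the E12.5 mutant and 75.6 FPKM in the E12.5 control. These ages overlapped (log2 -0.35, SE 0.156, limma adjusted p = 0.154). Atp5g2 had 32.9 to 39.3 FPKM at E13.5 and 30.6 to 34.6 FPKM at E12.5, with a difference of 0.17 (SE 0.119, limma adjusted p = 0.348), and 86.9% of its 75-base words occur in other annotated genes.

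Shares within a family do not depend on the scaling of libraries. Atp5g1 made up 27.0% and 29.2% of the summed FPKM of the c subunit genes in E13.5 mutants, 29.3% and 29.0% in E13.5 controls, 13.6% in the E12.5 mutant and 17.99% in the E12.5 control. Atp5g3 made up 49.3% and 45.8% in E13.5 mutants, 46.9% and 46.8% in E13.5 controls, 65.8% in the E12.5 mutant and 58.4% in the E12.5 control. The share of Atp5g1 was thus higher and that of Atp5g3 lower in every E13.5 library than in both E12.5 libraries. The share of Atp5g2 was 20.6% to 25.0%.

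**Figure D2:**
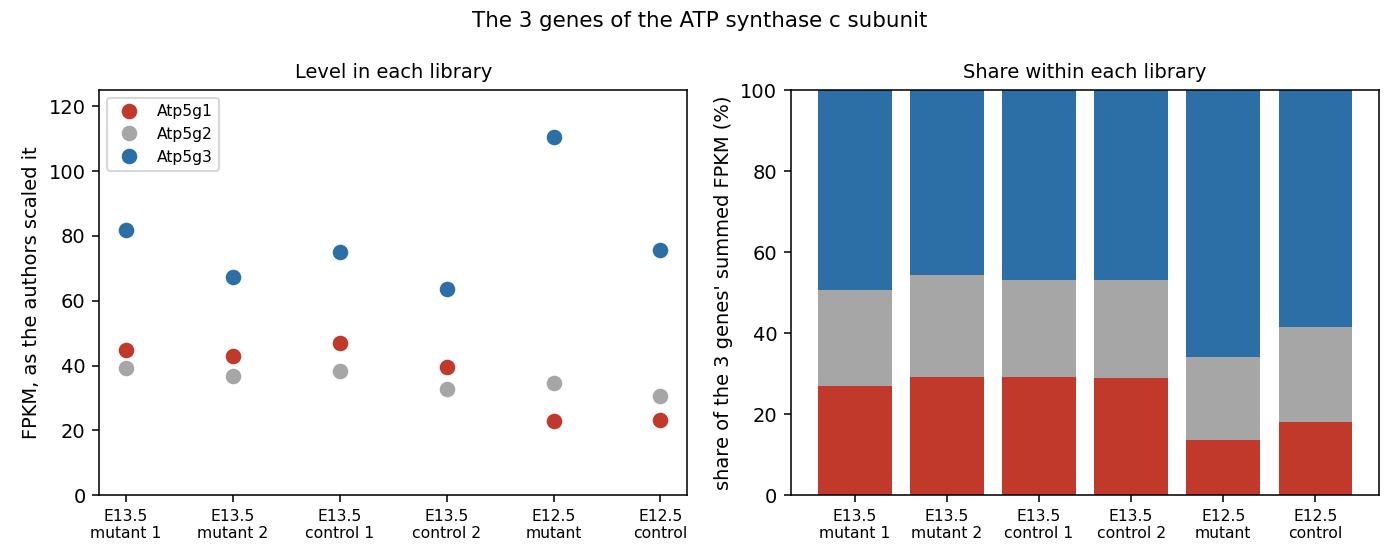
FPKM of Atp5g1, Atp5g2 and Atp5g3 in each library (left) and the share of each in their sum (right, stacked bars in percent). Atp5g1 lay at 39.5 to 46.9 FPKM in the 4 E13.5 libraries and at 22.8 and 23.3 FPKM at E12.5, and its share was 27.0% to 29.3% at E13.5 against 13.6% and 17.99% at E12.5.

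Atp5d and Cox6b1 were the other members called higher at E13.5. Atp5d encodes the delta subunit of the rotor's central stalk. It had 64.4 and 65.0 FPKM in E13.5 mutants, 72.4 and 64.1 FPKM in E13.5 controls, 42.1 FPKM in the E12.5 mutant and 30.8 FPKM in the E12.5 control. The ages did not overlap, and the difference was 0.86 on the log2 scale (1.82-fold, SE 0.145, limma adjusted p = 0.00495). Atp5d lies within another symbol's wide listed locus, which makes its assignment uncertain. Cox6b1 encodes a subunit of complex IV on the side that binds cytochrome c. It had 49.6 and 51.4 FPKM in E13.5 mutants, 60.6 and 56.2 FPKM in E13.5 controls, 37.8 FPKM in the E12.5 mutant and 27.9 FPKM in the E12.5 control (log2 0.72, SE 0.153, limma adjusted p = 0.0139). Without the E12.5 control library both calls were lost (limma adjusted p = 0.0597 for Atp5d and 0.151 for Cox6b1). Without that library but with scaling to 1 FPKM sum, Atp5d was called (limma adjusted p = 0.0232) and Cox6b1 was not (limma adjusted p = 0.0589).

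The members called lower included 5 of 35 tested genes of complex I, against 9.26% of all genes. Ndufa6, an accessory subunit that binds the acyl carrier protein, had the largest fall. It had 28.0 and 19.4 FPKM in E13.5 mutants, 18.9 and 17.9 FPKM in E13.5 controls, 48.8 FPKM in the E12.5 mutant and 31.4 FPKM in the E12.5 control (log2 -0.89, SE 0.154, limma adjusted p = 0.0059). Ndufb5, an accessory subunit of the membrane arm, had 30.2 and 22.1 FPKM in E13.5 mutants, 23.1 and 24.4 FPKM in E13.5 controls, 45.7 FPKM in the E12.5 mutant and 32.2 FPKM in the E12.5 control (log2 -0.61, SE 0.15, limma adjusted p = 0.0238). For both genes the E12.5 mutant stood above every other library. Ndufs3, a core subunit of the peripheral arm, had 18.9 to 22.1 FPKM at E13.5 against 28.0 to 34.6 FPKM at E12.5 (log2 -0.57, SE 0.126, limma adjusted p = 0.0161). Of the words of Ndufs3, counted as for Cox7c, 28.2% occur in other annotated genes, so its reads may be shared. Ndufa5 had 15.1 to 18.2 FPKM at E13.5 against 22.1 to 23.9 FPKM at E12.5 (log2 -0.48, SE 0.106, limma adjusted p = 0.0165), and Ndufa2 fell by 0.50 (SE 0.142, limma adjusted p = 0.0416). The core subunits Ndufs1, Ndufs7, Ndufs8, Ndufv1 and Ndufv2 did not pass the threshold, with differences of -0.27 to 0.07.

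Complex III held 3 lower genes of 8 tested and none higher, against 9.26% of all genes called lower and 7.45% higher. Uqcrfs1, the Rieske iron-sulfur protein, had 15.1 and 13.5 FPKM in E13.5 mutants, 13.1 and 14.5 FPKM in E13.5 controls, 21.7 FPKM in the E12.5 mutant and 18.5 FPKM in the E12.5 control (log2 -0.48, SE 0.113, limma adjusted p = 0.0197). Uqcrc1, a core protein facing the matrix, had 11.7 to 13.6 FPKM at E13.5, 23.1 FPKM in the E12.5 mutant and 15.3 FPKM in the E12.5 control (log2 -0.52, SE 0.125, limma adjusted p = 0.0227). Its partner Uqcrc2 had a difference of -0.35 and did not pass (limma adjusted p = 0.0766). Uqcrb, which lies near the ubiquinone site, had 17.5 to 29.3 FPKM at E13.5 against 35.3 to 50.1 FPKM at E12.5 (log2 -0.84, SE 0.198, limma adjusted p = 0.021), and 29.1% of its 75-base words occur elsewhere. In complex II, Sdhb, the iron-sulfur subunit, had 22.3 to 25.1 FPKM at E13.5 against 31.0 to 32.2 FPKM at E12.5 (log2 -0.39, SE 0.111, limma adjusted p = 0.0395). Cox7a2l, an assembly factor for supercomplexes of complexes III and IV, had 49.7 to 60.4 FPKM at E13.5 against 70.9 to 90.9 FPKM at E12.5 (log2 -0.52, SE 0.146, limma adjusted p = 0.0392). All the lower calls were lost when the E12.5 mutant library was left out, and their differences then were -0.74 to -0.29. Without the E12.5 control the differences were -1.11 to -0.43, and Ndufa2, Ndufa5, Sdhb and Uqcrfs1 were no longer called. After scaling to 1 FPKM sum, the lower calls did not hold without the E12.5 mutant or without the E12.5 control. Each of these fits leaves 1 library at E12.5.

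By complex, the median age difference was 0.12 for complex IV and -0.16 to -0.11 for complexes I, II, III and V. The assembly factors and relatives had a median of -0.20. After scaling to 1 FPKM sum the median of complex IV was 0.18, and those of complexes I, II, III and V were -0.09 to -0.04. Of its 14 tested genes, Cox6b1 alone was called with the authors' values. After scaling 3 were called higher (Cox6b1, Cox6a1 and Cox7c), against 9.56% of all genes, and none lower, against 6.54%. Its share of the FPKM sum was 0.623% and 0.485% in E13.5 mutants, 0.611% and 0.581% in E13.5 controls, 0.497% in the E12.5 mutant and 0.483% in the E12.5 control. E13.5 mutant replicate 2 therefore lay within the E12.5 values, and the other E13.5 libraries lay above them. Cox6c went the other way from this median, with 62.3 to 106 FPKM at E13.5 against 102 to 127 FPKM at E12.5 (log2 -0.48, SE 0.202, limma adjusted p = 0.127).

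**Figure D3:**
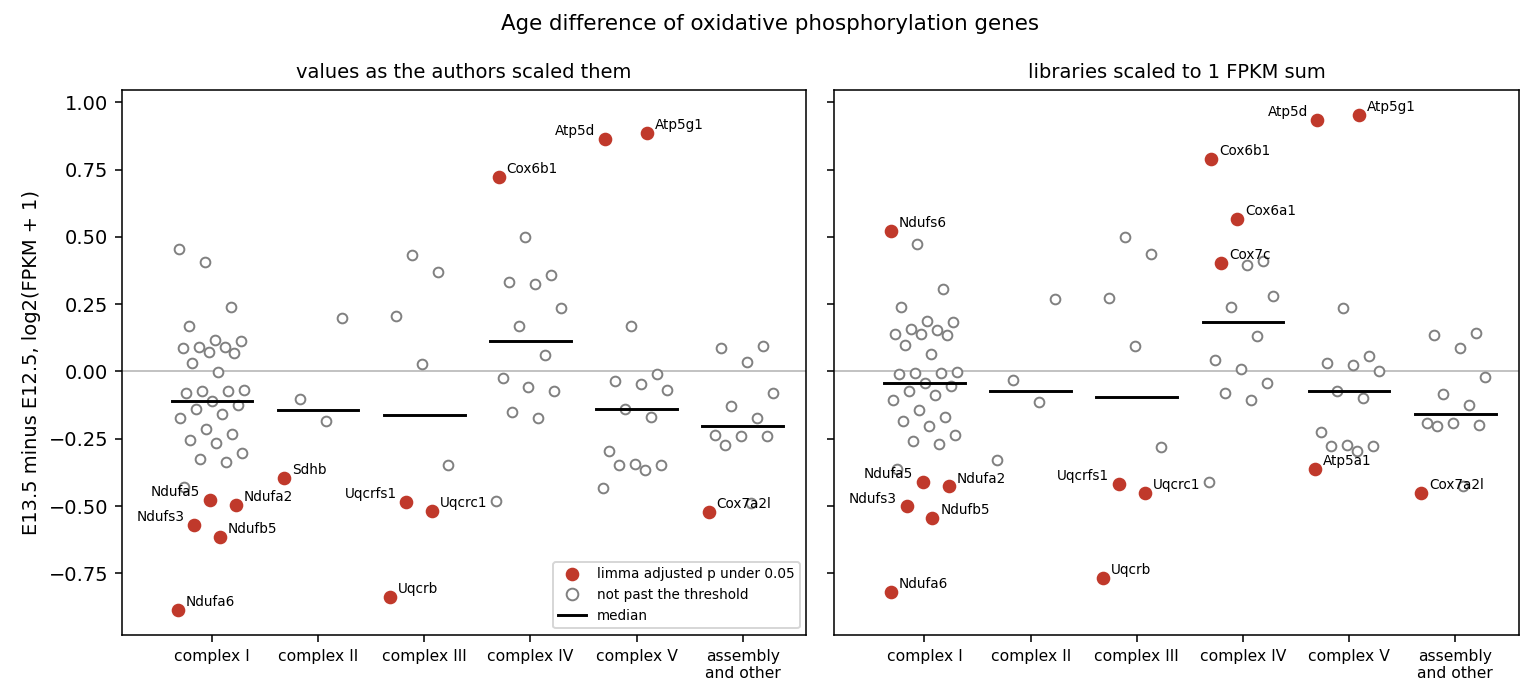
Age difference (E13.5 minus E12.5, log2(FPKM + 1)) of each of the 88 tested genes by complex, with the authors' values (left) and with libraries scaled to 1 FPKM sum (right). Filled red points are genes with limma adjusted p under 0.05, open points are the others and bars are medians. Complex IV had the one median above 0 in both panels, at 0.12 and 0.18.

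Age cannot be told apart from anything else in which the E12.5 pair differs, including its title number. The summed levels of several marker lists moved with age. The oral epithelium list (16 of 16 genes found, none averaging 1 FPKM) had 6.73 to 9.91 FPKM at E13.5 against 4.17 to 4.23 FPKM at E12.5. The endothelium list (10 of 10 found, 1 averaging 1 FPKM or more) had 10.95 to 21.1 FPKM against 7.71 to 10.1 FPKM. That gene, Ramp2, averaged 13.1 FPKM over the 6 libraries. The neuron list (13 of 13 found, 3 averaging 1 FPKM or more) had 50.6 to 90.9 FPKM at E13.5 against 34.0 to 43.9 FPKM at E12.5. Gap43 was its highest gene, with a mean of 28.7 FPKM. The pericyte and smooth muscle list (10 of 10 found, 3 averaging 1 FPKM or more) had 13.8 to 16.3 FPKM against 9.95 to 10.7 FPKM. The erythroid list (13 of 15 found) was lower, with 263 to 593 FPKM at E13.5 against 699 to 744 FPKM at E12.5. No gene found in these lists was at 0 in all libraries. The part of these cell types, of Xist status and of transcript length in the age differences was not tested. In such bulk libraries fewer cells of a type and less RNA per cell cannot be told apart.

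Promoter sequences of the c subunit genes and of 3 other members are printed. The 3 are examples from the members called with age, and not all called members are printed. The printed genes moved differently with age, and factors known to act on respiratory genes have short recognition motifs. NRF1 and GABP are transcription factors known to drive many nuclear genes of respiration, YY1 acts on others, and Sp1 binds GC boxes. RefSeq windows on GRCm38.p6, from 250 bases before to 50 bases after the transcript start, were found for 78 of the 94 members (84 windows). GCATGCGC (NRF1) was found on either strand in 14.3% of the members' windows, against 2.71% of all windows and 5.56% of windows of the other genes tested. CCGGAAG (GABP and related ETS factors) was in 22.6%, against 8.86% and 18.5%. AAGATGGC (YY1) was in 14.3%, against 2.75% and 4.76%, with matches in 7 of 32 complex I genes and 3 of 14 complex V genes. Within the 120 bases before the start, YY1 matches lay in Atp5j and Atp5sl and in no complex I gene. The other YY1 matches lay further upstream, or at or after the start. GGGCGG (Sp1) was in 44.0%, against 35.7% and 65.2%. Matches of different motifs may overlap, and each was counted. A match is a description of letters and not of binding. The 120 bases before the RefSeq start are given from the 5′ end to the 3′ end in the direction of transcription, with matches in capitals. The stretches of Atp5g1 and Cox6b1 reach into the loci listed in the deposited files, which start further upstream.
Atp5g1, chr11:96075632-96075751, minus strand: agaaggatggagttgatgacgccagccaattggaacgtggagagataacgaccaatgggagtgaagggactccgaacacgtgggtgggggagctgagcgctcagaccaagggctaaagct
Atp5g2, chr15:102671048-102671167, minus strand: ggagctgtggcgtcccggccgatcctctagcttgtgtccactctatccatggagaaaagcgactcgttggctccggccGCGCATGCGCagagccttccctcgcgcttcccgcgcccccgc
Atp5g3, chr2:73911327-73911446, minus strand: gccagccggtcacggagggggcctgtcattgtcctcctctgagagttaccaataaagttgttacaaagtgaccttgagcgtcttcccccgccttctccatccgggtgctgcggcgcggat
Cox6b1, chr7:30626115-30626234, minus strand: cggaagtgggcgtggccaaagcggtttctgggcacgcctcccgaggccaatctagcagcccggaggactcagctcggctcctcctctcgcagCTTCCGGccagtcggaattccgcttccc
Ndufa6, chr15:82354292-82354411, minus strand: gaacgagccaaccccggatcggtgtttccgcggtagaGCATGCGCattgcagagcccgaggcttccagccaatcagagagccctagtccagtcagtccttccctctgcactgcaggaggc
Ndufs3, chr2:90904722-90904841, minus strand: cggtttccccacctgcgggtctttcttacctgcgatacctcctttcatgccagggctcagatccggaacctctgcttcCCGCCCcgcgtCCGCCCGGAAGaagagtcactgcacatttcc
Atp5g2 held overlapping NRF1 matches, Ndufa6 held an NRF1 match, Cox6b1 held an ETS match, and Ndufs3 held an ETS match that overlaps 1 of its Sp1 matches. The stretches of Atp5g1, which was called higher at E13.5, and of Atp5g3, which was not called, held none of the 4 motifs. Among called members not printed, those of Atp5d, Ndufa5, Ndufb5, Uqcrc1 and Uqcrfs1 also held none. Sdhb held an NRF1 and an Sp1 match, and Cox7a2l held an Sp1 match.

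The comparison of mutants with controls at E13.5 asked whether loss of Osr2 changed subunit levels, and no member passed the threshold in either direction. Over all genes tested, 0.852% were called higher and 0.435% lower. At an unadjusted limma p under 0.05 there was 1 member, Ndufb7, against 9.24% of all genes. The median difference was -0.01 for members (0.04 for all genes), the differences ran from -0.43 to 0.33, and the median SE was 0.148. Both mutants lay above both controls for 14 members (24.8% of all genes) and below both for 9 (13.2% of all genes). Scaling to 1 FPKM sum also gave no member (0.75% of all genes higher, 0.37% lower), and 2 members had an unadjusted limma p under 0.05 (9.03% of all genes). Both mutants then lay above both controls for 11 members (22.7% of all genes) and below both for 15 (14.9% of all genes). By complex the medians were -0.03 for complex I, 0.01 for II, -0.01 for III, -0.05 for IV and 0.06 for V. These tests do not show that levels were equal in the 2 genotypes, since the spread between the E13.5 mutant libraries was wide.

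Ndufb7, an accessory subunit of complex I, had the smallest p. It had 15.7 and 14.5 FPKM in E13.5 mutants and 22.3 and 17.4 FPKM in E13.5 controls (log2 -0.37, SE 0.148, limma adjusted p = 0.46). Ndufs6, a zinc-binding subunit of complex I, had 64.4 and 53.1 FPKM in E13.5 mutants and 77.8 and 69.4 FPKM in E13.5 controls (log2 -0.32, SE 0.152, limma adjusted p = 0.583). Both mutant values were below both control values for these genes. On the other side, Ndufa6 had 28.0 and 19.4 FPKM in E13.5 mutants and 18.9 and 17.9 FPKM in E13.5 controls (log2 0.33, SE 0.173, limma adjusted p = 0.654). Ndufa9, a subunit near the ubiquinone site, had 20.9 and 17.1 FPKM in E13.5 mutants and 16.5 and 15.2 FPKM in E13.5 controls (log2 0.24, SE 0.14, limma adjusted p = 0.713). Sdha, Sdhb, Sdhc and Sdhd, the whole of complex II, had differences of -0.17 to 0.16.

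The 2 mutant libraries of E13.5 differed from each other by transcript length. Mutant replicate 2 was below mutant replicate 1 for 70 of the 88 members (79.5%), against 42.1% of all genes. The median difference of replicate 2 minus replicate 1 was -0.43 for the 31 members with a longest transcript under 600 bases, -0.29 for the 24 of 600 to under 1000 bases and -0.10 for the 33 of 1000 bases or more. Other genes of the same lengths had -0.37, -0.23 and 0.06. Short members such as Atp5k, a membrane subunit of ATP synthase with a transcript of 292 bases, showed the difference. Atp5k had 124 and 59.4 FPKM in E13.5 mutants and 97.3 and 91.1 FPKM in E13.5 controls. Ndufa4, once assigned to complex I and now to complex IV, had 95.7 and 52.7 FPKM in E13.5 mutants and 99.7 and 91.9 FPKM in E13.5 controls. In both, replicate 2 was the lowest of the 4 libraries while replicate 1 was near or above the controls. Without mutant replicate 1, which leaves replicate 2 as the only E13.5 mutant, 4 members, all with transcripts under 600 bases, were called lower in the mutant and none higher. Over all genes that fit called 1.37% lower and 1.42% higher. The members were Ndufa4 (limma adjusted p = 0.00585), Uqcr10 (0.0146), Atp5k (0.0201) and Atp5l (0.0408), and that fit assumes that the lone library varies like the other groups.

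**Figure D4:**
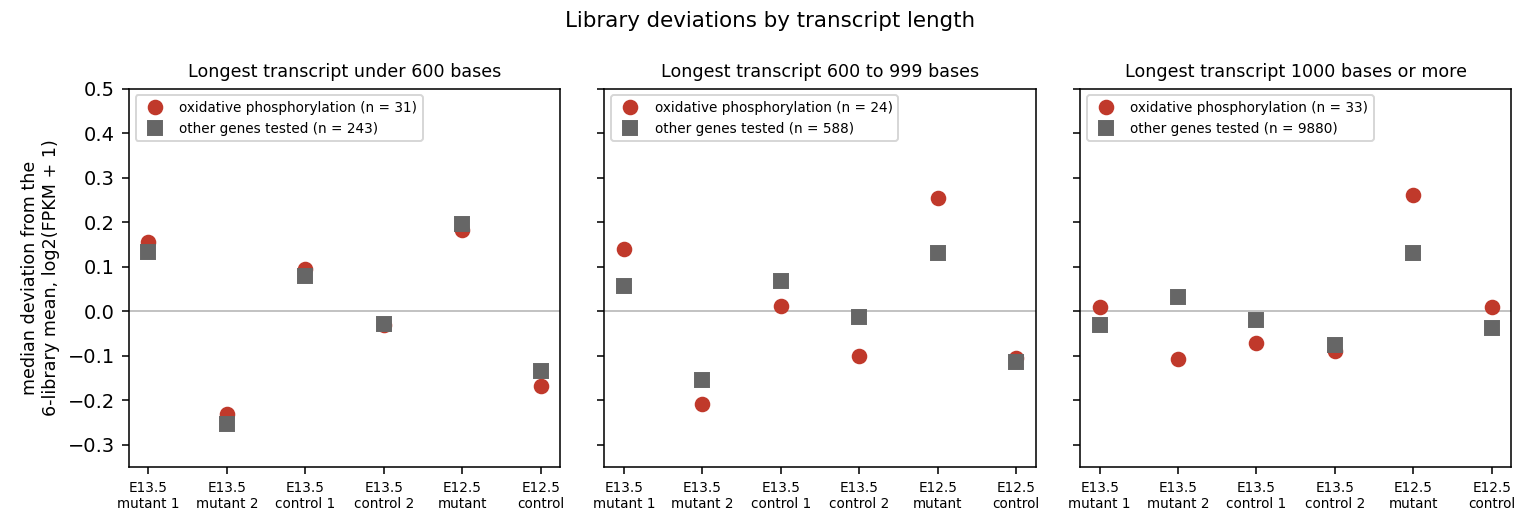
Median deviation of each library from the mean of the 6 libraries, in log2(FPKM + 1), for oxidative phosphorylation genes (circles) and other tested genes (squares) in 3 classes of longest transcript. For transcripts under 600 bases E13.5 mutant replicate 2 lay at -0.23 for members and -0.25 for other genes, while for transcripts of 1000 bases or more it lay at -0.11 and 0.03.

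At E12.5 there was 1 library per genotype, so differences have no replicate check and no test was made. The mutant value was higher for 79 of the 88 members, against 79.2% of all genes. The median difference was 0.32 for members and 0.18 for all genes, and 66 of 88 members lay above the median gene. By longest transcript, member medians were 0.38 under 600 bases, 0.35 for 600 to under 1000 bases and 0.26 for 1000 bases or more. Other genes of the same lengths had 0.32, 0.24 and 0.18. The difference thus varied with length in both sets, and the part of length in the gap between members and all genes was not tested. After scaling to 1 FPKM sum the mutant was higher for 54 members, against 37.5% of all genes, and the medians were 0.05 for members and -0.06 for all genes. Of the 77 members whose higher library reached 5 FPKM, 13 were higher by 0.5 or more, against 8.24% of such genes, and 1, Cox6b2, was lower by as much, against 0.755%. None differed by 1 or more (0.673% of such genes higher and 0.263% lower). After scaling none was higher by 0.5 (1.5% of such genes) or by 1 (0.421%), and Cox6b2 was the one member lower by 0.5 (3.03%) and by 1 (0.421%). Complex V had the highest median, at 0.43 with the authors' values and 0.14 after scaling, with 14 and 13 of its 15 genes higher in the mutant.

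The largest positive E12.5 differences were in Ndufc2, Ndufa1 and Uqcr10. Ndufc2, a membrane arm subunit of complex I, had 33.7 FPKM in the mutant and 20.4 FPKM in the control (log2 0.69). Ndufa1, an X-linked subunit of complex I, had 56.0 FPKM in the mutant and 34.5 FPKM in the control (log2 0.68), and Uqcr10 had 61.3 FPKM in the mutant and 38.5 FPKM in the control (log2 0.66). After scaling these were 0.41, 0.40 and 0.37. Among members with 5 FPKM or more in the higher library, the lowest differences were in Cox6b2, Ndufv3 and Ndufb2. Cox6b2 differed by -0.90, Ndufv3 (10.6 FPKM in the mutant and 12.002 FPKM in the control) by -0.16 and Ndufb2 (10.3 FPKM in the mutant and 11.4 FPKM in the control) by -0.13.

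**Figure D5:**
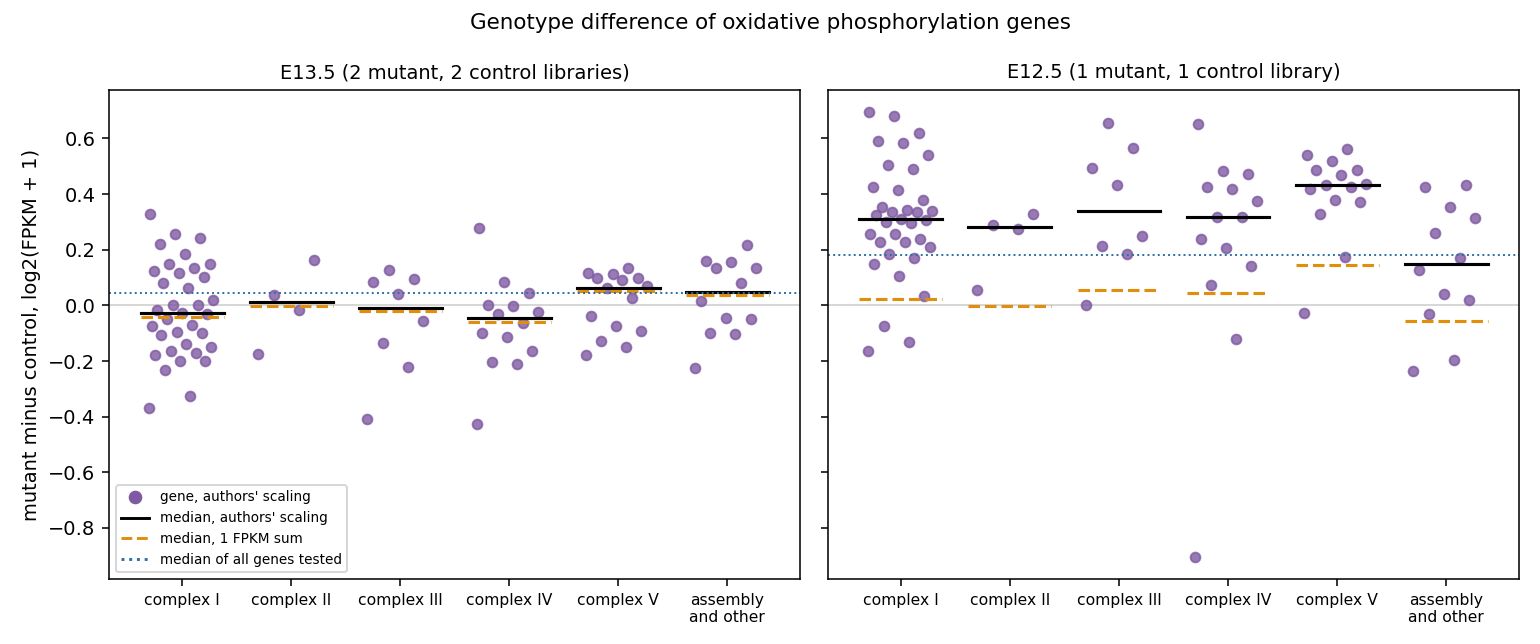
Genotype difference (mutant minus control, log2(FPKM + 1)) of each of the 88 tested genes by complex at E13.5 (left) and E12.5 (right), with medians under the authors' values (solid), medians after scaling to 1 FPKM sum (dashed) and the median of all genes tested (dotted). The E13.5 medians lie between -0.05 and 0.06 in complexes I to V, and the E12.5 medians of 0.28 to 0.43 lie between -0.003 and 0.14 after scaling.

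Across both ages, in the fit with age and genotype, no member was called for genotype, against 1.08% of all genes higher and 0.361% lower. At an unadjusted limma p under 0.05 there were 3 members (Ndufa6, Ndufs7 and Uqcrc1), against 13% of all genes. Scaling to 1 FPKM sum also called none (0.722% of all genes higher, 0.685% lower), with 4 members at an unadjusted limma p under 0.05 (10.2% of all genes). Ndufa6 had the smallest p, with a difference of 0.42 (SE 0.145, limma adjusted p = 0.254). Ndufa6 was higher in the mutant at E13.5, as given above, and had 48.8 FPKM in the E12.5 mutant and 31.4 FPKM in the E12.5 control. Ndufs7, a core iron-sulfur subunit of complex I, had a difference of 0.36 (SE 0.134, limma adjusted p = 0.289), and its assignment is uncertain because it lies within another symbol's wide listed locus. The interaction, which asks whether the genotype difference at E13.5 differed from that at E12.5, called no member, against 0.0278% of all genes higher and 0.00926% lower. At an unadjusted limma p under 0.05 there were 8 members, all with a negative interaction, against 5.81% of all genes with either sign. At any p, the interaction was negative for 74 of the 88 members and for 7851 of the 10799 genes tested. After scaling to 1 FPKM sum no member was called (0.0278% of all genes higher, 0.00925% lower) and 2 had an unadjusted limma p under 0.05 (4.54% of all genes). The scaled interaction was negative for 56 members and for 3534 of 10806 genes. Ndufb3, a membrane arm subunit, had the smallest p (interaction -0.74, SE 0.217, limma adjusted p = 0.712), followed by Uqcr10 (-1.06, SE 0.333, limma adjusted p = 0.713). After scaling these were -0.47 and -0.79, and the smallest p was that of Atp5sl, with a positive interaction (0.59, SE 0.233, limma adjusted p = 0.988). The neuron marker list, at 79.8 and 90.9 FPKM in E13.5 mutants against 55.0 and 50.6 FPKM in E13.5 controls, moved with genotype at E13.5. So did the palatal mesenchyme list, at 1008 and 1066 FPKM in E13.5 mutants against 944 and 973 FPKM in E13.5 controls. That list includes Osr2 itself, which went the other way, at 68.5 and 88.4 FPKM in E13.5 mutants against 138 and 152 FPKM in E13.5 controls. The erythroid list had 472 and 263 FPKM in E13.5 mutants against 593 and 501 FPKM in E13.5 controls, and the oral epithelium list had 7.59 and 6.73 FPKM against 9.91 and 8.46 FPKM. The glia list (8 of 8 found) had 1.20 and 1.28 FPKM in E13.5 mutants against 1.30 and 1.29 FPKM in E13.5 controls. The part of these lists in the differences was not tested.

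No gene of the neighbouring lists of mitochondrial energy metabolism was called for genotype. Their calls with age stand against 7.45% of all genes called higher and 9.26% lower. Of 37 tested respiratory chain and assembly genes outside the prefixes, none was called higher at E13.5 and 2 were lower. These were Foxred1, a complex I assembly factor (1.85 to 2.42 FPKM at E13.5 against 3.53 to 4.34 FPKM at E12.5, log2 -0.60, limma adjusted p = 0.0126), and Cox19, a complex IV assembly factor (log2 -0.56, limma adjusted p = 0.0249). Cytochrome c1 (Cyc1) had 53.1 to 57.4 FPKM at E13.5 against 42.5 to 51.5 FPKM at E12.5 (log2 0.21, limma adjusted p = 0.245). Cytochrome c (Cycs) had a difference of 0.14 (limma adjusted p = 0.341) and Atpif1, the inhibitor of ATP synthase, one of -0.16 (limma adjusted p = 0.533). Of 15 tested regulators of mitochondrial biogenesis, 3 were lower at E13.5. They were Peo1, the mitochondrial DNA helicase (log2 -0.52, limma adjusted p = 0.0141), Polrmt, the mitochondrial RNA polymerase (log2 -0.44, limma adjusted p = 0.021), and Tfb1m, which methylates mitochondrial ribosomal RNA (log2 -0.51, limma adjusted p = 0.0412). Of 17 tricarboxylic acid cycle genes, 2 were lower, Fh1 and Suclg1. Fh1, fumarate hydratase, had 20.2 and 18.9 FPKM in E13.5 mutants, 17.4 and 18.7 FPKM in E13.5 controls, 39.3 FPKM in the E12.5 mutant and 30.1 FPKM in the E12.5 control (log2 -0.84, SE 0.116, limma adjusted p = 0.00218). Suclg1, a subunit of succinyl-CoA ligase, fell by 0.39 (limma adjusted p = 0.0407). None of 7 tested carriers of ADP, ATP and phosphate and uncoupling proteins was called. Under scaling to 1 FPKM sum Suclg1 was no longer called (limma adjusted p = 0.0683), and Mdh2, malate dehydrogenase, and Slc25a5, an ADP/ATP carrier, were called higher (limma adjusted p = 0.0287 and 0.042).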

How the data were processed

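RNA-seq was analysed in 6 libraries of sorted mouse palatal mesenchyme. Per the labels' protocols, libraries were poly A selected and read as pairs of 75 bases, with a Nextera kit and a TruSeq stranded kit both named. The authors deposited FPKM values per RefSeq transcript, named by them as Cufflinks output. Per the submitters' processing notes, the tools included Bowtie 0.12.7 and TopHat 1.4.1, with builds mm9 and mm10, and all 109 lines of the members overlapped their GENCODE transcript on mm10, 79 with both ends within 100 bases. The deposited coverage signal, the mean depth over a transcript, was used only to estimate depth. No counts were available, so depth gives no counting intervals and replicate spread measures precision.

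FPKM was summed per gene symbol, and 25 symbols with a failed transcript estimate were left out. Genes with at least 1 FPKM in at least 2 libraries (10799) were tested on log2(FPKM + 1), so fold changes understate the change of low genes. Moderated two-sided tests came from limma 3.58.1 (R 4.3.3) with a trend on intensity, adjusted by Benjamini-Hochberg over all genes, and 0.05 was the threshold. The fit of group means gave the E13.5 genotype difference and the interaction, in which lone E12.5 libraries are assumed to vary like the others. An additive fit gave age and the genotype difference over both ages. The fits were checked on simulated data.

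Members over 20% of whose 75-base words occur in other GENCODE genes (18) were marked, as were symbols inside another's locus. Alternatives were 3 scalings, other pseudocounts and filters, no trend, shared-read or short symbols left out, and each library left out. Leaving out libraries after scaling, and a block on the title number, were added after seeing the data. The members, lists and comparisons were chosen with earlier results of these data known. Genes named are the 3 highest of each complex, all called members, the nearest to a call where none was, the extremes at E12.5, tissue isoforms, the c subunit genes, Cyc1, Cycs, Atpif1 and called genes of the pathway lists.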

Additional observations from a re-analysis of the deposited data

How the results depend on the processing

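No member was called for genotype at E13.5, over both ages or in the interaction under any of the 3 other scalings. The counts below have no share over all genes beside them, so a shift in calls over all genes cannot be told apart from them. The exception is the E13.5 fit without E13.5 mutant replicate 1, whose shares are given above. Leaving out 1 library gave 0 to 4 members at E13.5, 0 to 1 over both ages (Ndufa6, higher in mutants without E13.5 mutant replicate 2, limma adjusted p = 0.0314) and 0 to 3 in the interaction (Ndufa4, Uqcr10 and Atp5k, without E13.5 mutant replicate 1). With libraries scaled to 1 FPKM sum and 1 left out, each of these counts was 0 to 1. The scaled calls were Ndufa4 at E13.5 (limma adjusted p = 0.0494) and Cox6b2 over both ages (0.012), both without E13.5 mutant replicate 1, and Cox6b2 in the interaction (0.0178) without E13.5 control replicate 1. With no filter on low values the interaction called 1 member, Ndufs5.

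For age, 13 members were called, and the settings that kept all libraries gave 13 to 18, except that no filter gave 3. The split was 3 higher and 10 lower, against 804 and 1000 of the 10799 genes tested. After scaling to 1 FPKM sum it was 6 and 10, against 1033 and 707 of 10806. It was 5 and 10 after median ratio scaling, against 1065 and 862 of 10796. After upper quartile scaling it was 5 and 9, against 1130 and 752 of 10820. For the other settings and the fits with 1 library left out, no share over all genes is given. Their counts therefore cannot be told apart from a shift in calls over all genes. Leaving out 1 library gave 3 to 17, with 3 higher and 0 lower without the E12.5 mutant, 1 higher and 7 lower without the E12.5 control and 9 higher and 8 lower without E13.5 mutant replicate 2. After scaling to 1 FPKM sum the range was 2 to 23, with 3 without the E12.5 mutant, 2 without the E12.5 control and 23 without E13.5 mutant replicate 2. Atp5g1 was called under each of its 16 alternatives, with limma adjusted p of 0.000365 to 0.0244.

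The E12.5 median difference of 0.32 was 0.05 after scaling to 1 FPKM sum, 0.11 after upper quartile scaling and 0.15 after median ratio scaling. No called gene reversed its direction. The median over both ages was 0.10 for members with the authors' values and -0.005 after scaling to 1 FPKM sum, and the E12.5 median of complex II was 0.28 and -0.003. Apart from these values, the cause of each change was not tested. The labels give no shared replicate numbers, but title number 2962 covers both E12.5 libraries and 3048 covers E13.5 mutant replicate 2 and both E13.5 controls. With the title number as a replicate block, which takes the place of age and leaves E13.5 mutant replicate 1 without a partner, 0 members were called for genotype over both ages, and 1 (Cox6b2, lower in mutants, limma adjusted p = 0.0148) after scaling to 1 FPKM sum. The labels do not say that the number marks a pairing. With 2 libraries per genotype at E13.5 and a median SE of 0.148, small differences of single members could not be detected.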

Other observations

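Some members varied between libraries without following age or genotype. Cox6b2 ranged from 4.42 to 14.7 FPKM, with E13.5 mutant replicates 1 and 2 at 14.7 and 4.64 FPKM, while its partner Cox6b1 had 49.6 and 51.4 FPKM in the same libraries. Cox7a1 had 0.74 and 1.06 FPKM in E13.5 mutants, 0.199 and 1.03 FPKM in E13.5 controls, 0.734 FPKM in the E12.5 mutant and 0.884 FPKM in the E12.5 control.

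Within complex III, the age differences of larger and smaller subunits had opposite signs in part. Uqcrc1, Uqcrc2 and Uqcrfs1, with transcripts of 1313 to 1882 bases, had -0.52, -0.35 and -0.48, while the short Uqcr10 and Uqcr11 had 0.37 and 0.43 (limma adjusted p = 0.307 and 0.0985), and the short Uqcrb had -0.84. Over all members the median age difference was 0.03 for transcripts under 600 bases and -0.18 for those of 1000 bases or more. Other genes had -0.08 and -0.07 in the same classes. This contrast was noticed after the values were seen and was not tested.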
